A study of Mus musculus with 20 samples.

Results

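Collagens are the main structural proteins of the extracellular matrix, and in mouse skeletal muscle their transcripts were followed in RNA-seq libraries from cystathionine γ-lyase knockout (Cse-/-) mice and their controls on diets lacking single amino acids. The genes considered were every protein-coding gene whose symbol has the form Col, number, a, number in the GENCODE M21 annotation of GRCm38. There were 44 such genes among the 46078 rows of the count table, all 44 had a row, and each had at least 1 read in some library. A filter on low counts left 42 for testing. The 2 left out were Col6a4, with 52 reads over all libraries, and Col10a1, with 27.

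Each collagen is a trimer of α-chains wound into a triple helix, and each chain has its own gene. Fibrillar collagens (types I, III and V in muscle) form the tensile fibrils of the connective tissue around fibres and bundles, type VI forms beaded filaments close to the fibre surface, type IV forms the sheet of the basement membrane, and the multiplexins (types XV and XVIII) sit at and just outside it. In muscle these transcripts come mostly from fibroblasts and other connective tissue cells rather than from the fibres themselves, and chains need hydroxylases, chaperones and cross-linking enzymes on the way to a stable fibril.

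The study asked which responses of muscle follow the loss of dietary cysteine in animals that cannot make it, with a tryptophan-free diet to tell apart the loss of another amino acid. Cse (gene symbol Cth) encodes the last enzyme of the route from methionine to cysteine. Per the labels the 20 muscle samples comprised 3 WT and 4 KO mice on the control diet, 3 WT and 3 KO mice on the cysteine-free (noCys) diet, and 2 WT and 5 KO mice on the tryptophan-free (noTrp) diet. The KO allele was carried on a mixed 129/C57BL/6 background, and the labels' WT mice are described as heterozygous in the study's text. The methods give an age of at least 9 weeks. All diets, the control included, were calorie-restricted, with 3 days of restricted control diet followed by 2 days on the named diet. Count columns were named by mouse number and were placed in groups by the study's own key, so a library number is only a name. The deletion was not limited to muscle, and the enzyme itself was not measured in these data.

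The libraries held 23374720 to 73154363 counted reads, of which 0.0466% to 0.1212% fell in collagen genes. Levels are counts-per-million values (CPM) on library sizes scaled by edgeR's TMM factors. Cth itself had 56 to 141 reads in the 7 libraries labelled WT other than WT noTrp library 2 and 11 to 67 reads in KO libraries. It stood at 2.63 ± 1.12 CPM (SD, n = 3) in WT control and 1.11 ± 0.11 CPM (n = 4) in KO control, at 2.16 ± 0.60 CPM (n = 3) in WT noCys and 0.64 ± 0.15 CPM (n = 3) in KO noCys, and at 0.79 ± 0.15 CPM (n = 5) in KO noTrp. On the noCys diet Cth was lower in KO by 1.72 ± 0.36 (log2, SE; adjusted p = 0.0146, edgeR's quasi-likelihood test). On the control diet the log2 difference was -1.25 ± 0.30 with an adjusted p of 0.444 in the same test. The library labelled WT noTrp library 2 had 34 Cth reads (1.09 CPM) against 107 (2.82 CPM) in the other WT noTrp library, inside the KO control range of 0.95 to 1.21 CPM and above the KO noTrp range of 0.60 to 0.99 CPM. Results that rest on this library are given with and without it. The 7 genes of the muscle fibre list, among them Acta1, Ckm and the myosin heavy chains, summed to 74800 to 103000 CPM across libraries.

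The start regions of collagens called lower are shown to place the letters of common promoter elements. The RefSeq promoter table (build GRCm38.p6) matched 35 of the 44 genes, with 38 promoters. The 150 bases just before the start site are printed, 5′ to 3′ in the direction of transcription, for the 5 genes called lower in KO noCys than in KO control whose start in the table is the GENCODE start. Capitals mark the letters of the CCAAT box (CCAAT, in reverse complement reading ATTGG), the GC box (GGGCGG, in reverse complement reading CCGCCC) and the TATA box (TATAAA, in reverse complement reading TTTATA), none of which overlaps another here. Letters were matched anywhere in the window without regard to position, so a match is not shown to be a working element.
Col6a2, chr10:76623631-76623780, minus strand: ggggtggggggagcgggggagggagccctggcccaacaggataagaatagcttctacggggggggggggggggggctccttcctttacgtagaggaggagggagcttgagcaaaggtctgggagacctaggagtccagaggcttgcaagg
Col6a3, chr1:90843972-90844121, minus strand: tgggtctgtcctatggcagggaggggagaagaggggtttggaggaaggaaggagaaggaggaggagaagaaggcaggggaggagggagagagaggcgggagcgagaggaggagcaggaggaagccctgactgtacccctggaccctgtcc
Col3a1, chr1:45311388-45311537, plus strand: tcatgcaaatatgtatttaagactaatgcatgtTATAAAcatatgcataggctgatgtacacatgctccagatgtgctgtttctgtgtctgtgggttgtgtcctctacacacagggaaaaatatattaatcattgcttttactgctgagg
Col5a1, chr2:27886275-27886424, plus strand: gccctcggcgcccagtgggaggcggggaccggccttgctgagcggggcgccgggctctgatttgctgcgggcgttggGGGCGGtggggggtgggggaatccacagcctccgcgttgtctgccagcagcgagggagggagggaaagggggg
Col5a3, chr9:20815068-20815217, minus strand: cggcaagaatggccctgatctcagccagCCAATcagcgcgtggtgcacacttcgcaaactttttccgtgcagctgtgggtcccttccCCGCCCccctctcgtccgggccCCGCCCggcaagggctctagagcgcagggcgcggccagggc
Col3a1 held TATAAA, Col5a1 held GGGCGG, Col5a3 held CCAAT and the reverse complement of GGGCGG, and neither Col6a2 nor Col6a3 held any of these letters in this window. Over windows of the same length, GGGCGG on either strand occurred in 28.6% of all 32851 promoters and in 19 of the 38 collagen promoters. CCAAT occurred in 24.5% and in 8 of 38, and TATAAA in 7.57% and in 4 of 38. Among the 9 promoters of the 8 genes called lower in KO noCys against KO control, 3 held GGGCGG, 2 held CCAAT and 1 held TATAAA.

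Per length, as TMM-scaled CPM per kilobase of exon averaged over the 6 group means, the basement membrane chains Col4a1 (16.1 ± 2.06, SD over groups) and Col4a2 (13.3 ± 1.86) were the highest of the 44. They were followed by the type I chains Col1a1 (11.8 ± 4.61) and Col1a2 (8.92 ± 2.81), by Col6a1 (8.23 ± 1.75) and by Col3a1 (8.10 ± 3.48). Col4a1 and Col4a2 differed by more than the spread of either over groups, and from Col4a2 to Col3a1 each gene differed from the next by less than the larger spread of the pair. Col7a1, the chain of anchoring fibrils, stood at 6.14 ± 0.555, Col5a3 at 5.26 ± 1.19, Col6a2 at 3.31 ± 0.96 and Col15a1 at 2.59 ± 0.89. Below Col11a2 (1.05 ± 0.13) the remaining 27 genes were under 1 on this scale. The cartilage chain Col2a1 was at 0.026 and the growth-plate chain Col10a1 at 0.012. Exon length here merged all annotated exons of a gene over its transcripts, 12426 bases for Col1a2 and 6563 for Col1a1. The order therefore depends on the annotation. In CPM without length, Col1a2 was above Col4a1 in WT control (154.57 and 128.07) and below it in KO noCys (56.63 and 102.76).

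KO mice on the noCys diet had lower levels of Col3a1 and Col5a1 (2 of 11 fibrillar genes), Col6a1 and Col6a2 (2 of 5 tested beaded-filament genes) and Col15a1 than WT mice on the same diet, so that 5 of the 42 tested genes were called lower and 0 called higher by edgeR's quasi-likelihood test (adjusted p under 0.05 over all 17340 genes). Of all genes tested, 0.934% were called lower and 149 of 17340 were called higher in this comparison. The 5 were lower by 1.68-fold to 3.38-fold. The median of the 42 log2 differences was -0.30 beside -0.01 over all genes, and 35 of 42 were negative beside 51.2% of all genes. In 12 genes no KO library reached the lowest WT library, and 8.47% of all genes showed such a gap. Since muscle was sampled in bulk, fewer cells of a type and less RNA per cell cannot be told apart here.

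Against KO mice on the control diet, the same KO noCys libraries had 8 of 42 collagen genes called lower and 0 called higher. Of all genes, 2.63% were called lower and 634 of 17340 were called higher. The 8 collagens were Col6a2, Col15a1, Col6a1, Col6a3, Col5a1, Col3a1, Col5a3 and Col1a2, with falls of 1.7-fold to 3.22-fold. The median of the 42 log2 differences was -0.39 beside -0.02 over all genes, and 38 of 42 were negative beside 53.2% of all genes. The groups did not overlap, with KO noCys lower, for 12 of 42 genes and for 10.2% of all genes. Both comparisons rest on the same 3 KO noCys libraries and are thus not independent. Each collagen's values are given for the KO noCys, WT noCys and KO control libraries in turn, by class.

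**Figure D1:**
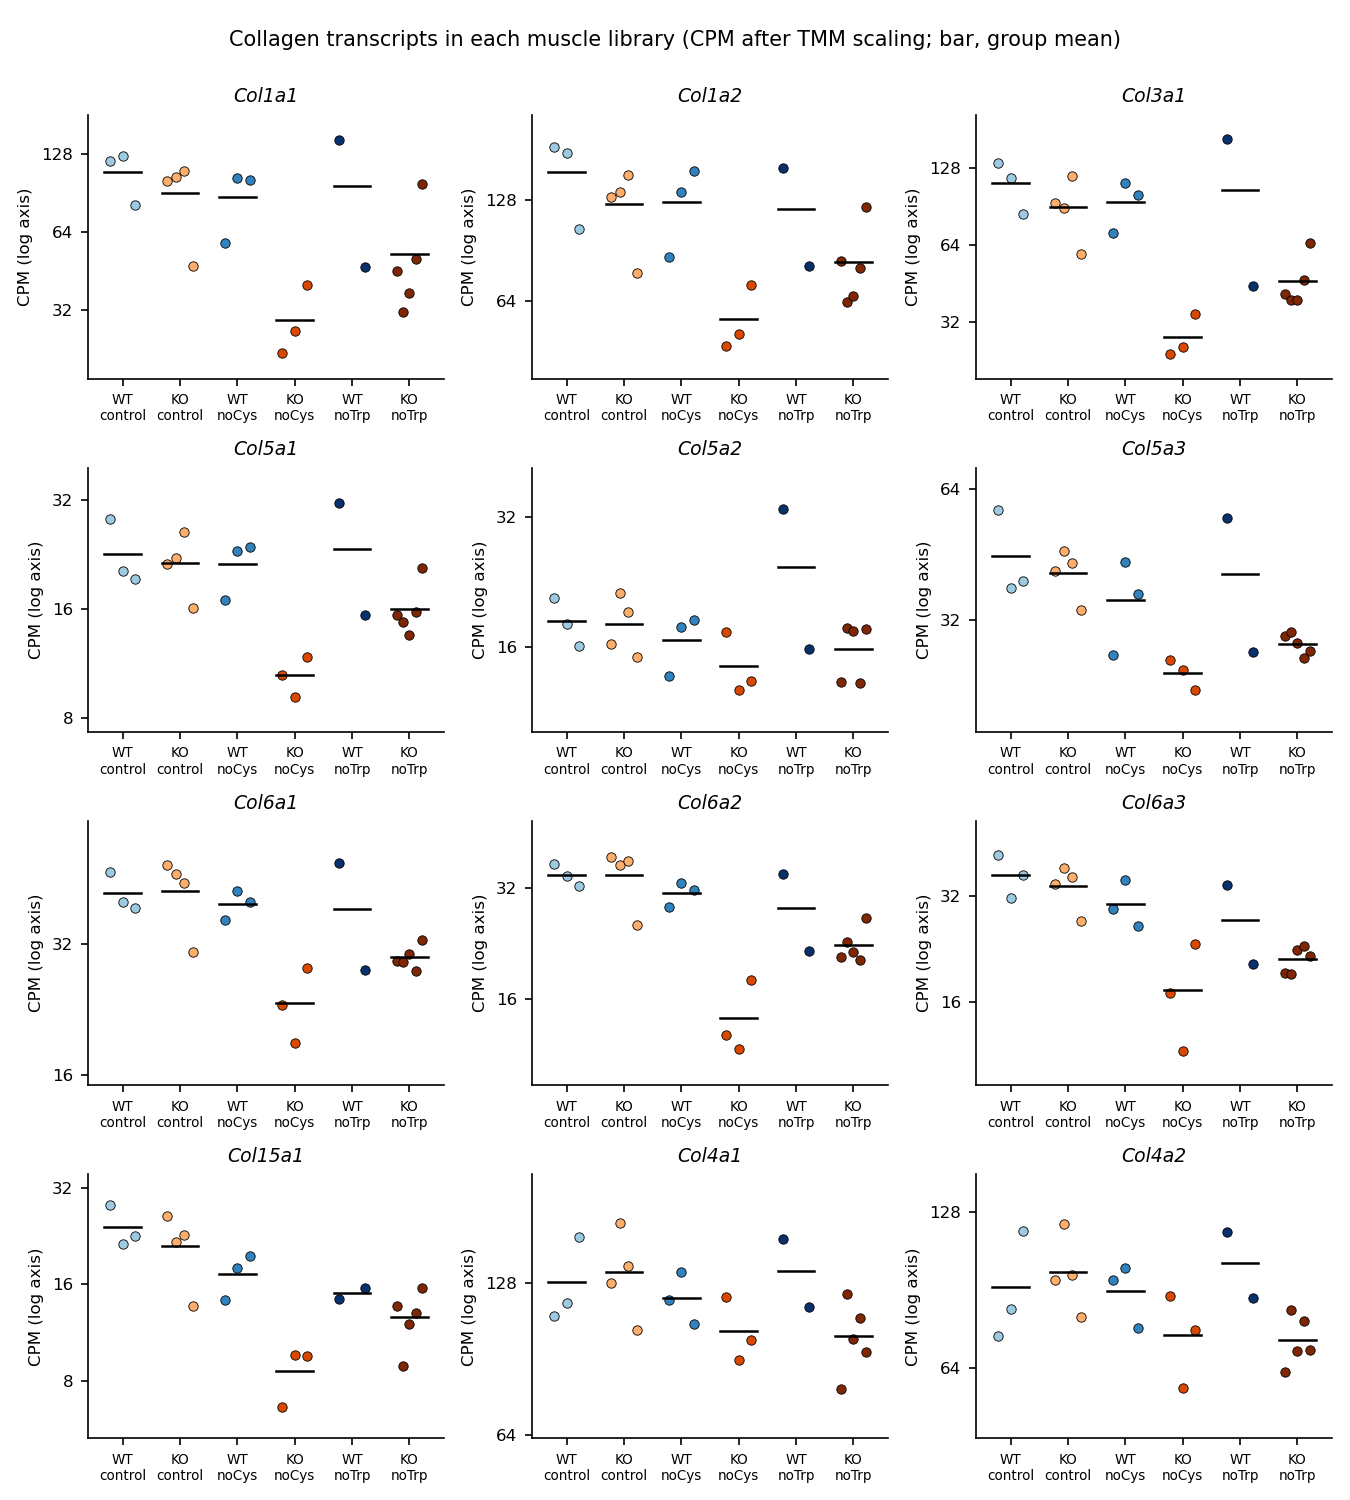
Level of 12 collagen genes in each of the 20 muscle libraries, as CPM after TMM scaling on a log axis, with 1 point per library and a bar at each group mean. The 3 KO noCys libraries lie below all WT noCys and KO control libraries for Col1a1, Col1a2, Col3a1, Col5a1, Col5a3 and the 3 type VI chains and Col15a1, and overlap them for Col5a2, Col4a1 and Col4a2.

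Col3a1 (chr1:45311538-45349706), the single chain of type III collagen that runs with type I in pliable tissue, stood at 24.0, 25.5 and 34.4 CPM in the 3 KO noCys libraries, at 71.4, 112.3 and 100.3 CPM in WT noCys and at 94.0, 89.3, 119.2 and 59.4 CPM in KO control. The KO noCys libraries were the lowest of the 10 with no overlap. The log2 difference was -1.76 ± 0.39 (SE; adjusted p = 0.0366) against WT noCys and -1.69 ± 0.38 (adjusted p = 0.0169) against KO control.

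The type I chains, which make up most of the fibril mass, were also at their lowest in KO noCys. Col1a1 (chr11:94936224-94953042) measured 21.8, 26.6 and 39.9 CPM in KO noCys, 58.0, 103.7 and 101.4 CPM in WT noCys and 100.8, 104.5, 109.9 and 47.3 CPM in KO control. Col1a2 (chr6:4504814-4541544) measured 47.2, 51.0 and 71.7 CPM, 86.6, 135.2 and 155.5 CPM, and 130.6, 135.3, 152.1 and 77.9 CPM in the same order. In both genes every KO noCys library was below every library of the other 2 groups, the nearest being KO control library 4 and WT noCys library 1. Col1a1 did not pass edgeR's test in either comparison (log2 difference -1.57 ± 0.49, adjusted p = 0.133, and -1.62 ± 0.47, adjusted p = 0.0553). Col1a2 fell against KO control (-1.13 ± 0.32, adjusted p = 0.0494) and was at -1.15 ± 0.34 against WT noCys (adjusted p = 0.11).

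Type V chains nucleate and limit the width of type I fibrils. Col5a1 (chr2:27886425-28039514) was at 10.5, 9.1 and 11.8 CPM in KO noCys, 16.9, 23.2 and 23.7 CPM in WT noCys and 21.2, 22.1, 26.0 and 16.0 CPM in KO control. It was lower with no overlap, by 1.02 ± 0.24 on the log2 scale against WT noCys (adjusted p = 0.0404) and by 1.02 ± 0.23 against KO control (adjusted p = 0.0147). Col5a2 (chr1:45374321-45503282), its partner in the common heterotrimer, was at 17.4, 12.7 and 13.3 CPM in KO noCys, 13.7, 17.8 and 18.5 CPM in WT noCys and 16.3, 21.4, 19.3 and 15.2 CPM in KO control. These ranges overlapped, and neither difference passed (-0.20, 95% interval -0.67 to 0.27, and -0.32, 95% interval -0.76 to 0.12). Col5a3 (chr9:20770050-20815067) was at 25.9, 24.5 and 22.1 CPM in KO noCys, 26.6, 43.5 and 36.6 CPM in WT noCys and 41.6, 46.1, 43.4 and 33.7 CPM in KO control. It fell by 0.77 ± 0.21 on the log2 scale against KO control (adjusted p = 0.0367) and was at -0.55 ± 0.22 against WT noCys (adjusted p = 0.251), where WT noCys library 1 came within 1 CPM of the KO range.

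None of the other 5 fibrillar genes passed in either comparison. Col27a1 was at -0.61 and -0.78, Col24a1 at -0.91 and -0.36, Col11a2 at -0.52 and -0.47 and Col11a1 at -0.41 and -0.39 on the log2 scale against WT noCys and KO control. Col2a1, the cartilage fibril chain, had 182 reads over all 20 libraries and intervals that span -1.41 to 1.99 and -1.75 to 1.28.

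Of the beaded-filament class, all 3 chains of the common type VI heterotrimer fell against KO control, and Col6a1 and Col6a2 did so against WT noCys. Col6a2 (chr10:76595762-76623630) had the smallest adjusted p of all collagens in both comparisons. It was at 12.8, 11.7 and 18.0 CPM in KO noCys, 28.3, 33.0 and 31.6 CPM in WT noCys and 38.9, 36.9, 37.7 and 25.4 CPM in KO control, so that its highest KO noCys value was well under the lowest value of either other group. The log2 difference was -1.12 ± 0.18 (2.18-fold lower, adjusted p = 0.00487) against WT noCys and -1.29 ± 0.18 (2.44-fold lower, adjusted p = 0.000659) against KO control. Col6a1 (chr10:76708792-76726168) was at 23.2, 18.9 and 28.3 CPM in KO noCys, 36.5, 42.5 and 40.0 CPM in WT noCys and 48.7, 46.6, 44.3 and 30.7 CPM in KO control. It was lower by 0.75 ± 0.19 (adjusted p = 0.0437) and by 0.85 ± 0.18 (adjusted p = 0.00855) on the log2 scale, without overlap. Col6a3 (chr1:90765923-90843971), whose chain is the longest of the 3, was at 17.0, 11.6 and 23.3 CPM in KO noCys, 29.3, 35.4 and 26.2 CPM in WT noCys and 34.6, 38.5, 36.1 and 27.2 CPM in KO control. It fell against KO control (-0.97 ± 0.20, adjusted p = 0.0102) and was at -0.80 ± 0.22 against WT noCys (adjusted p = 0.0702). Of the chains that can take the place of Col6a3, Col6a6 was at 0.14 and -0.13, Col6a5, with 179 reads in all, at -1.55 and -1.20 with SE of 0.93 and 0.89, and Col6a4 was not tested.

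Of the multiplexins, Col15a1 passed the test and Col18a1 did not. Col15a1 (chr4:47208161-47313167), which links the basement membrane of muscle and vessels to the surrounding fibrils, was at 6.6, 9.6 and 9.6 CPM in KO noCys, 14.3, 18.0 and 19.6 CPM in WT noCys and 26.1, 21.6, 22.8 and 13.7 CPM in KO control. It was lower by 1.01 ± 0.22 (adjusted p = 0.0243) and by 1.29 ± 0.21 (adjusted p = 0.00195) on the log2 scale, with no overlap. Col18a1 (chr10:77052178-77166548), the source of endostatin, was at 9.2, 6.3 and 7.8 CPM in KO noCys, 9.2, 13.0 and 12.3 CPM in WT noCys and 10.5, 11.5, 10.5 and 8.0 CPM in KO control. Its lowest WT noCys and highest KO noCys values were equal to 1 decimal, and its log2 differences of -0.55 ± 0.19 (adjusted p = 0.155) and -0.37 ± 0.18 (adjusted p = 0.224) did not pass. Reads of Col18a1 may include those of Slc19a1, which lies on the other strand and overlaps it by 8825 bases, and the strand setting of the counting was not found in the sources used.

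The basement membrane chains, Col4a1 and Col4a2 being the highest on the per-length scale above, showed smaller differences that did not pass. Col4a1 (chr8:11198423-11312826) was at 119.9, 90.0 and 98.4 CPM in KO noCys, 118.1, 134.2 and 106.0 CPM in WT noCys and 127.9, 167.7, 137.7 and 103.0 CPM in KO control. Col4a2 (chr8:11312805-11449287), transcribed away from it on the other strand, was at 88.2, 58.4 and 75.6 CPM, 94.7, 99.6 and 76.5 CPM, and 94.5, 121.3, 96.9 and 80.2 CPM. For both genes KO noCys library 1 lay inside the range of the WT noCys and KO control libraries. The log2 difference of Col4a1 was -0.22 (95% interval -0.60 to 0.17) and -0.38 (-0.75 to -0.02), and that of Col4a2 was -0.28 (-0.68 to 0.11) and -0.41 (-0.78 to -0.04), with adjusted p of 0.183 or more. The minor chains Col4a3, Col4a4, Col4a5 and Col4a6 ranged from -0.43 to 0.37 and did not pass.

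No member of the remaining classes passed edgeR's test in either comparison. The 9 fibril-associated genes had a median log2 difference of -0.23 in each, from -1.44 (Col9a1) to 0.02 (Col19a1) against WT noCys and from -0.74 (Col9a1) to 0.09 (Col22a1) against KO control. Col22a1, found at the junction of muscle and tendon, was at 11.2, 14.2 and 14.6 CPM in KO noCys and 18.6, 14.7 and 19.8 CPM in WT noCys (-0.41 ± 0.13, adjusted p = 0.13). The 4 membrane-spanning genes lay between -0.42 and -0.08, the short-chain genes Col8a1 and Col8a2 between -0.30 and -0.18, Col26a1 at -0.52 and -0.62, and Col28a1 at 0.28 and 0.36. Col7a1 was at 71.7, 71.9 and 46.6 CPM in KO noCys, 50.6, 69.1 and 62.1 CPM in WT noCys and 48.2, 54.9, 67.2 and 68.6 CPM in KO control, with differences of 0.06 and 0.08.

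**Figure D2:**
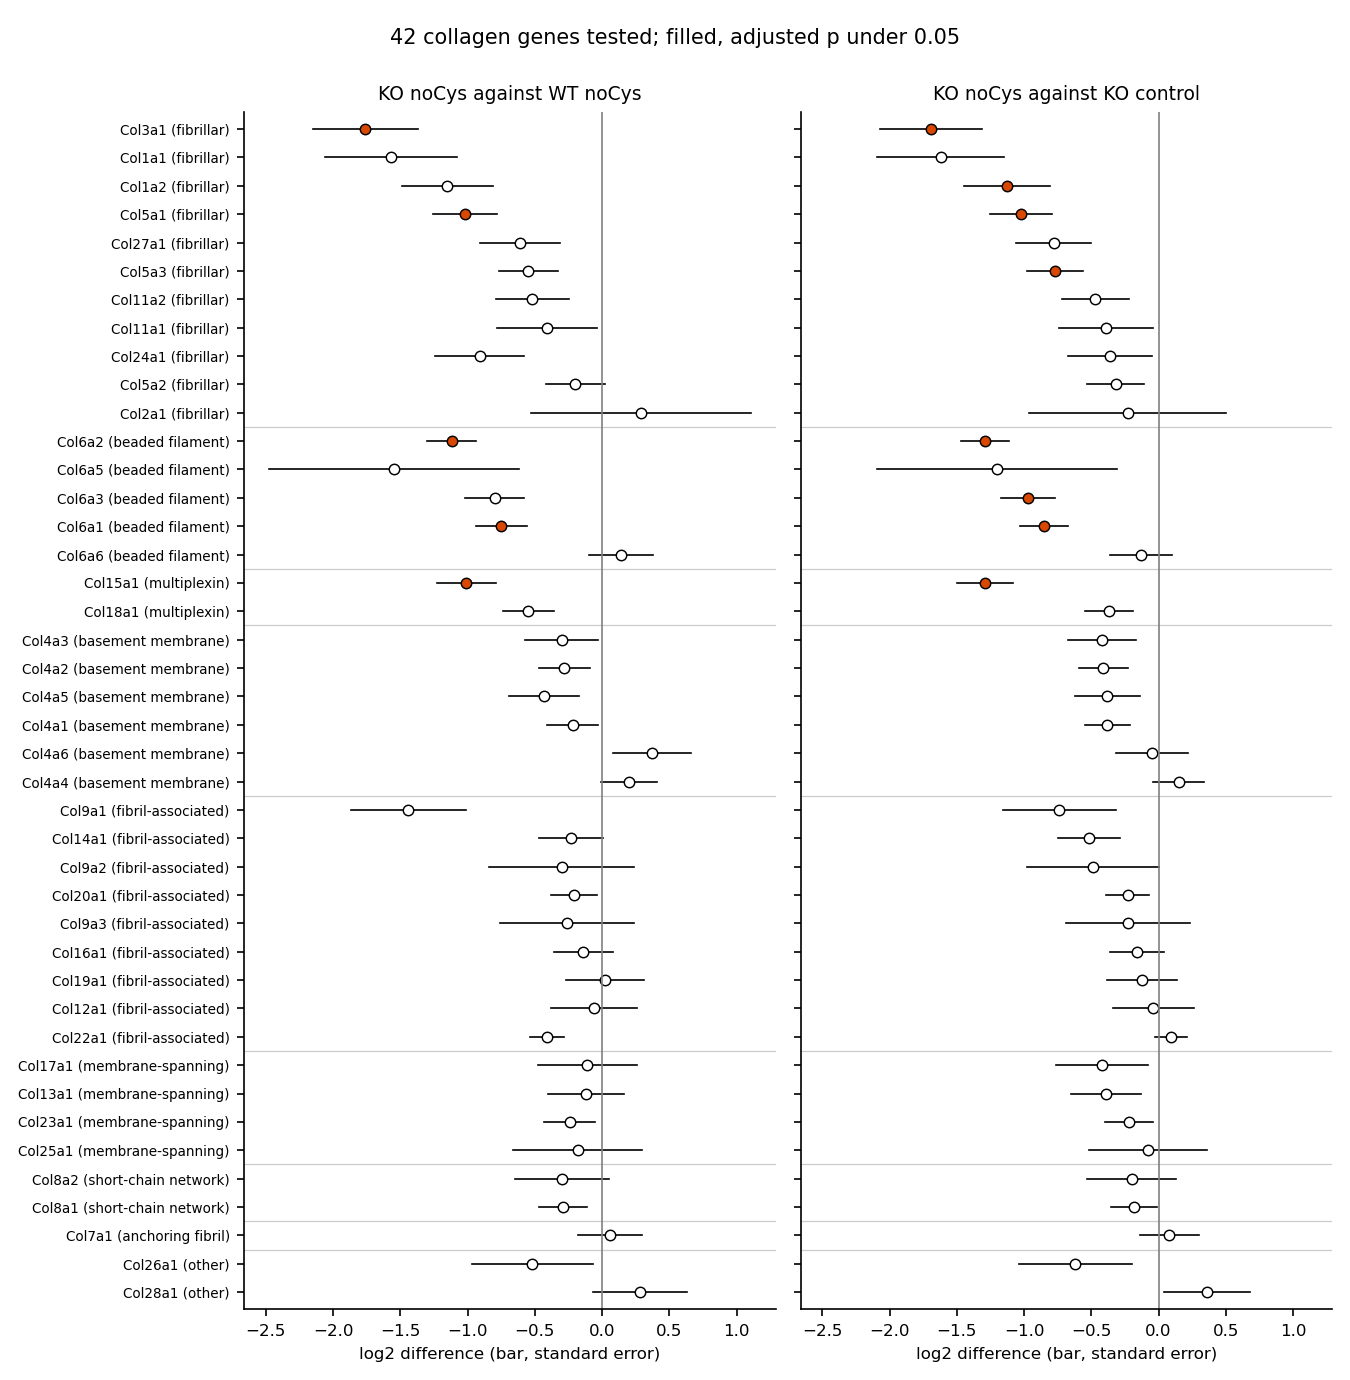
The log2 difference of the 42 tested collagen genes by class, with KO noCys against WT noCys on the left and KO noCys against KO control on the right, bars giving the standard error and filled points an adjusted p under 0.05. Filled points are all on the negative side, 5 on the left and 8 on the right, and lie in the fibrillar, beaded-filament and multiplexin classes.

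Single libraries weighed on these counts. Against WT noCys the number of genes called lower was 1 (Col6a2) without WT noCys library 2, WT noCys library 3, KO noCys library 1 or KO noCys library 2, and 3 without WT control library 2, KO control library 2, KO noTrp library 1 or KO noTrp library 4. Against KO control it was 3 without KO noCys library 1, 4 without KO noCys library 2 and 5 without KO control library 3. Over the 20 rounds that each left out 1 library, Col6a2 passed in 20 and 20, Col15a1 in 16 and 20, Col3a1 in 15 and 17, Col5a1 in 10 and 18 and Col6a1 in 6 and 20 of the rounds for WT noCys and KO control. Col6a3 passed in 3 and 19, Col1a2 in 0 and 6, and Col5a3 in 0 and 14. DESeq2's Wald test called 9 genes lower in each comparison. Beyond the genes called by edgeR, these included Col1a1, Col1a2, Col6a3 and Col9a1 against WT noCys, and Col1a1 against KO control.

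Summed over the 44 genes, collagen transcripts were at 566.4, 495.8 and 570.3 CPM in KO noCys. They were at 724.0, 969.6 and 911.3 CPM in WT noCys and at 918.5, 1009.7, 1001.5 and 677.0 CPM in KO control, so the KO noCys libraries were again lowest. In the other groups the sum was 967.1 ± 80.8 CPM (SD, n = 3) in WT control and 662.9 ± 72.0 CPM (n = 5) in KO noTrp. The 2 WT noTrp libraries stood far apart, at 1140.6 and 688.0 CPM, and the lower one was the library with few Cth reads.

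Ratios between chains were set side by side to compare genes within a library. Their size depends on the exon lengths used, which are the same for every library. The ratio of Col6a2 to Col6a1 per length was 0.32 ± 0.02 (SD, n = 3) in KO noCys, 0.41 ± 0.00 (n = 3) in WT noCys, 0.43 ± 0.01 (n = 4) in KO control and 0.39 ± 0.02 (n = 5) in KO noTrp. The KO noCys values, up to 0.33, lay below all others, whose lowest was 0.37. The ratio of Col4a1 to Col4a2 was 1.24 ± 0.11, 1.18 ± 0.06, 1.21 ± 0.05 and 1.22 ± 0.07 in the same 4 groups, and these ranges overlapped. Col3a1 relative to Col4a1 was 0.21 ± 0.06 in KO noCys, 0.61 ± 0.13 in WT noCys, 0.52 ± 0.12 in KO control and 0.36 ± 0.11 in KO noTrp, while Col3a1 relative to Col1a1 was 0.65 ± 0.08, 0.74 ± 0.08, 0.69 ± 0.12 and 0.64 ± 0.14. In two-sided exact permutation tests of the log ratios of these 4 pairs, KO noCys against each of the 3 groups, the lowest p was 0.0357 (Col6a2 to Col6a1 against KO noTrp, the smallest that 3 against 5 libraries allow), and after adjustment over the 12 tests none was below 0.2. Outside these tests, Col5a1 to its partner Col5a2 was 0.83 ± 0.16 in KO noCys, 1.44 ± 0.04 in WT noCys, 1.34 ± 0.18 in KO control and 1.16 ± 0.23 in KO noTrp, and Col1a2 to Col1a1 was 1.04 ± 0.10, 0.76 ± 0.06, 0.74 ± 0.09 and 0.90 ± 0.16. For both, KO noCys overlapped KO noTrp but neither of the other 2 groups. With 3 libraries against 3 the smallest possible p is 0.1, and with 3 against 4 it is 0.0571. Under these limits no adjusted p of the 12 tests could fall below 0.05, so they cannot decide whether a ratio changed.

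KO mice on the noTrp diet had group means between those of the other KO groups for Col6a2, Col3a1 and Col15a1. Col6a2 was at 20.8, 22.8, 21.4, 20.4 and 26.6 CPM in the 5 KO noTrp libraries, above all 3 KO noCys values and, but for library 5, below all 4 KO control values. Col3a1 was at 41.2, 39.0, 39.0, 46.7 and 65.1 CPM, and Col15a1 at 13.7, 8.9, 12.0, 13.0 and 15.6 CPM. Col3a1 thus lay above KO noCys in all 5 libraries, while the Col15a1 range took in part of the KO noCys range. Col1a1 was at 45.2, 31.5, 37.3, 50.2 and 98.1 CPM, Col1a2 at 84.2, 63.8, 66.5, 80.4 and 122.2 CPM and Col5a1 at 15.4, 14.7, 13.6, 15.7 and 20.7 CPM. Library 5 was the highest of its group for each of these 3.

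Between KO noCys and KO noTrp, 0 of 42 collagen genes passed edgeR's quasi-likelihood test, with 4 at an unadjusted p under 0.05 beside 2343 of all 17340 genes, and 1.3% of all genes were called in either direction. DESeq2 called 1, Col6a2. Its log2 difference was -0.65 ± 0.17 (adjusted p = 0.0603), and it passed without KO control library 4, KO noCys library 3, WT noTrp library 1 or WT noTrp library 2. Col3a1 was at -0.72 (95% interval -1.47 to 0.03), Col5a1 at -0.61 (-1.07 to -0.14) and Col15a1 at -0.56 (-0.98 to -0.13). Col4a1 and Col4a2 differed by 0.04 (-0.31 to 0.38) and 0.03 (-0.32 to 0.38). The KO noCys libraries were lower with no overlap for 4 genes, and 5.23% of all genes showed this. The median over the 42 genes was -0.23 beside -0.02 over all genes.

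Between KO noTrp and KO control, 0 of 42 passed edgeR's test and 10 had an unadjusted p under 0.05 beside 1611 of all 17340 genes, with 0.0519% of all genes called in either direction. DESeq2 called 3 lower, Col15a1, Col6a2 and Col6a3. The log2 differences were -0.73 ± 0.18 for Col15a1 (adjusted p = 0.13), -0.63 ± 0.15 for Col6a2 (adjusted p = 0.116), -0.69 ± 0.17 for Col6a3 (adjusted p = 0.17), -0.97 ± 0.31 for Col3a1 (adjusted p = 0.328) and -0.54 ± 0.18 for Col5a3 (adjusted p = 0.325). Col4a1 and Col4a2 were at -0.42 (95% interval -0.74 to -0.10) and -0.44 (-0.76 to -0.12). Lower values without overlap occurred for 3 genes and for 1.79% of all genes. Without KO control library 4 the count was 2 (Col15a1 and Col6a2), and without WT noTrp library 1 it was 1 (Col6a2).

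**Figure D3:**
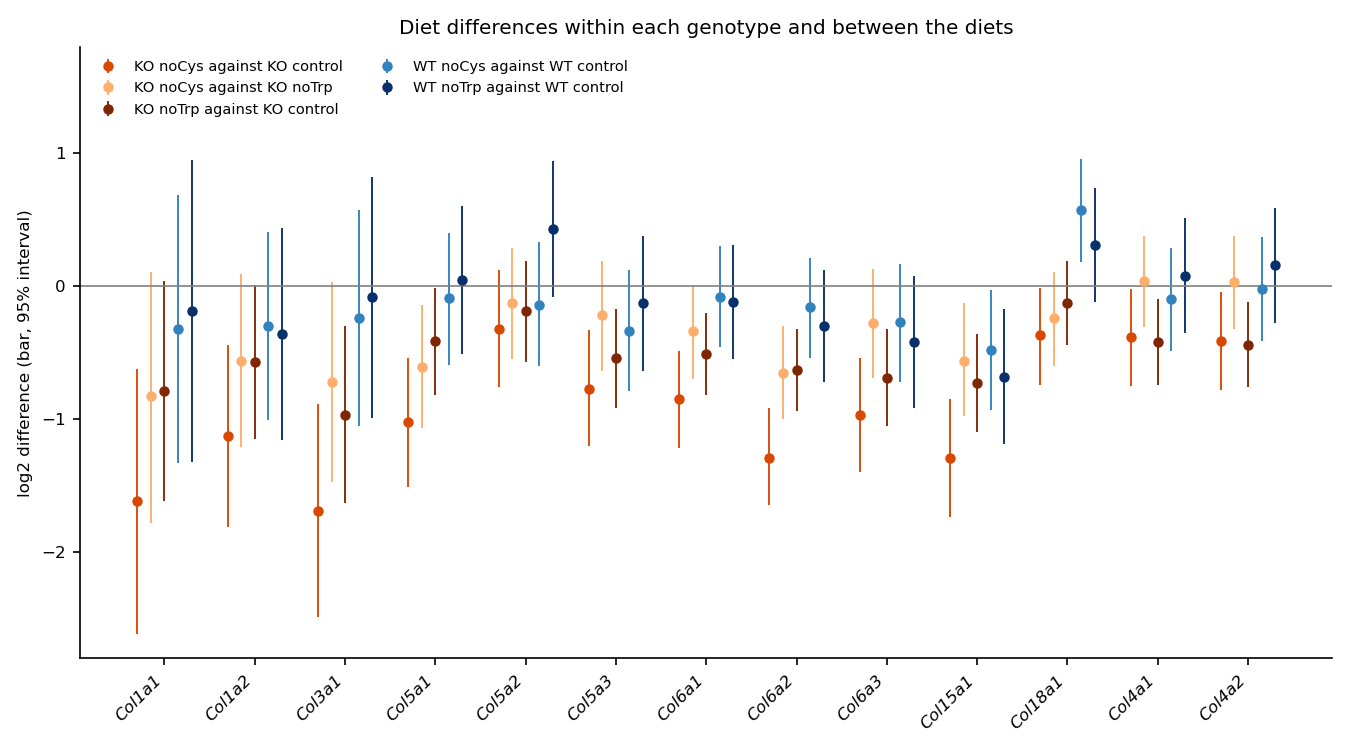
The log2 difference between diets for 13 collagen genes with its 95% interval, in KO mice (orange and brown) and in WT mice (blue). The KO noCys against KO control values are lowest for 11 of the genes shown, and the WT intervals include 0 except for Col15a1 and for Col18a1 on the noCys diet.

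In WT mice neither diet moved a collagen past the threshold. On the noCys diet against control, 0 of 42 passed edgeR's test, 3 had an unadjusted p under 0.05 beside 2026 of all 17340 genes, DESeq2 called 0, and 0.0519% of all genes were called in either direction. Col6a2 was at 37.2, 34.5 and 32.5 CPM in the WT control libraries, which overlapped the WT noCys range, with a difference of -0.16 ± 0.18. Col3a1 was at 133.9, 117.3 and 84.6 CPM in WT control (-0.24 ± 0.38) and Col15a1 at 28.2, 21.5 and 22.7 CPM (-0.48 ± 0.21, adjusted p = 0.398). For Col15a1 every WT noCys library, the highest at 19.6 CPM, was below every WT control library. Col18a1 was at 8.6, 6.5 and 8.0 CPM in WT control and had the lowest adjusted p (0.57 ± 0.19, adjusted p = 0.252), with WT noCys higher.

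For WT noTrp against WT control, 0 of 42 passed edgeR's test, 2 had an unadjusted p under 0.05 beside 2336 of all 17340 genes, DESeq2 called 0, and 0.173% of all genes were called in either direction. The values of WT noTrp libraries 1 and 2 were 166.6 and 44.5 CPM for Col3a1, 145.3 and 46.8 CPM for Col1a1, 34.8 and 21.5 CPM for Col6a2 and 33.4 and 15.8 CPM for Col5a2. Library 1 exceeded every WT control library for Col3a1, Col1a1 and Col5a2, and library 2 was below all 3 for these genes and for Col6a2. For Col15a1 libraries 1 and 2 were alike, at 14.5 and 15.6 CPM, and both lay below the WT control range of 21.5 to 28.2 CPM. Without library 2, Col5a2 was called higher and Col9a1 lower. Since 1 library is then left in the group, it was assumed to vary like the other groups.

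Between the genotypes, the control diet gave 0 of 42 by edgeR's test, 4 at an unadjusted p under 0.05 beside 1242 of all 17340 genes and 0 by DESeq2, and 0.0% of all genes were called in either direction. Col6a2 differed by -0.00 (95% interval -0.35 to 0.35), Col6a1 by 0.02 (-0.34 to 0.38), Col4a1 by 0.07 (-0.30 to 0.43), Col3a1 by -0.31 (-1.06 to 0.44) and Col1a1 by -0.27 (-1.22 to 0.67). On the noTrp diet KO against WT gave 0 of 42 by edgeR's test, 7 at an unadjusted p under 0.05 beside 925 of all 17340 genes and 0 by DESeq2, with 0.0% of all genes called in either direction. Col3a1 was at -1.19 ± 0.37 and Col5a2 at -0.64 ± 0.22 (adjusted p = 0.915 for both). Without WT noTrp library 2 the WT group holds only library 1. That library was at 166.6 CPM for Col3a1, 33.4 CPM for Col5a2 and 54.9 CPM for Col5a3. The highest KO noTrp values were 65.1, 17.7 and 30.1 CPM. A call in that fit rests on 1 WT mouse and shows no difference between genotypes.

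The difference of the noCys response between KO and WT was tested as an interaction. In edgeR's test 0 of 42 collagens passed, 8 had an unadjusted p under 0.05 beside 1930 of all 17340 genes, and 0.121% of all genes were called in either direction, so a difference between the responses of the genotypes was not shown. Col6a2 came nearest, at -1.12 ± 0.25 on the log2 scale (adjusted p = 0.0706), followed by Col18a1 at -0.94 ± 0.26 (adjusted p = 0.14). DESeq2 called both. Col3a1 was at -1.45 ± 0.53 (adjusted p = 0.307), Col5a1 at -0.93 ± 0.33 and Col15a1 at -0.81 ± 0.30. The median over 42 genes was -0.40 beside -0.02 over all genes. Col6a2 passed without KO noCys library 3, WT noTrp library 1 or WT noTrp library 2.

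Genes that make, organise, read and break down collagen were followed as lists. Of 30 enzymes and chaperones of collagen synthesis, 29 were tested and had a median log2 difference of -0.09 in each of the leading comparisons. Fkbp10, a prolyl isomerase that chaperones procollagen, was lower against WT noCys (-1.0 ± 0.20, adjusted p = 0.0136) and KO control (-0.87 ± 0.19, adjusted p = 0.0113), and so was Pcolce, the enhancer of procollagen C-proteinase (-0.68 ± 0.13, adjusted p = 0.00963, and -0.75 ± 0.12, adjusted p = 0.00159). Against KO control the cross-linking oxidase Loxl2 (-1.12 ± 0.26, adjusted p = 0.0141) and the collagen chaperone Serpinh1 (-0.71 ± 0.18, adjusted p = 0.0241) also fell. None of the list was higher. The hydroxylase subunits P4ha1 and P4hb were at 0.17 and 0.06 against KO control, and Lox was at 0.55 ± 0.31 (adjusted p = 0.311). The summed level of the 30 genes was 610 to 669 CPM in KO noCys, 664 to 685 CPM in WT noCys and 631 to 676 CPM in KO control, which overlapped.

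Of 17 fibril-organising matrix proteins, all tested, Fbn1, the main protein of microfibrils, was lower against WT noCys (-0.87 ± 0.17, adjusted p = 0.0109) and KO control (-1.23 ± 0.16, adjusted p = 0.000545), and Sparc, a collagen-binding matrix protein, fell against KO control (-0.59 ± 0.17, adjusted p = 0.0377). The list's medians were -0.09 and -0.14. The small proteoglycan Dcn was at 0.29 ± 0.12 against KO control (adjusted p = 0.16). Neither the 15 genes of collagen breakdown (13 tested, medians -0.12 and -0.10), the 10 basement membrane partners (all tested, -0.10 and -0.11) nor the 8 collagen receptors (7 tested, 0.03 and 0.02) had a gene called in either comparison. Of 13 genes of TGF-beta signalling, a main inducer of fibrillar collagens, 0 passed against WT noCys (median 0.15). Against KO control (median 0.23) the receptor Tgfbr1 rose (0.29 ± 0.09, adjusted p = 0.0487). So did the shared effector Smad4 (0.48 ± 0.11, adjusted p = 0.0122), while the ligand Tgfb2 fell (-0.59 ± 0.15, adjusted p = 0.022). Of all 17340 genes, 634 were called higher and 456 lower against KO control. Leaving out 1 library at a time, Tgfbr1 kept its call in 7 of 20 rounds, Sparc in 14, Serpinh1 and Tgfb2 in 16 each and Smad4 and Loxl2 in 19 each, while Fkbp10, Pcolce and Fbn1 did so in 16 to 20 in either comparison. No gene of these lists was called in the other 7 comparisons.

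**Figure D4:**
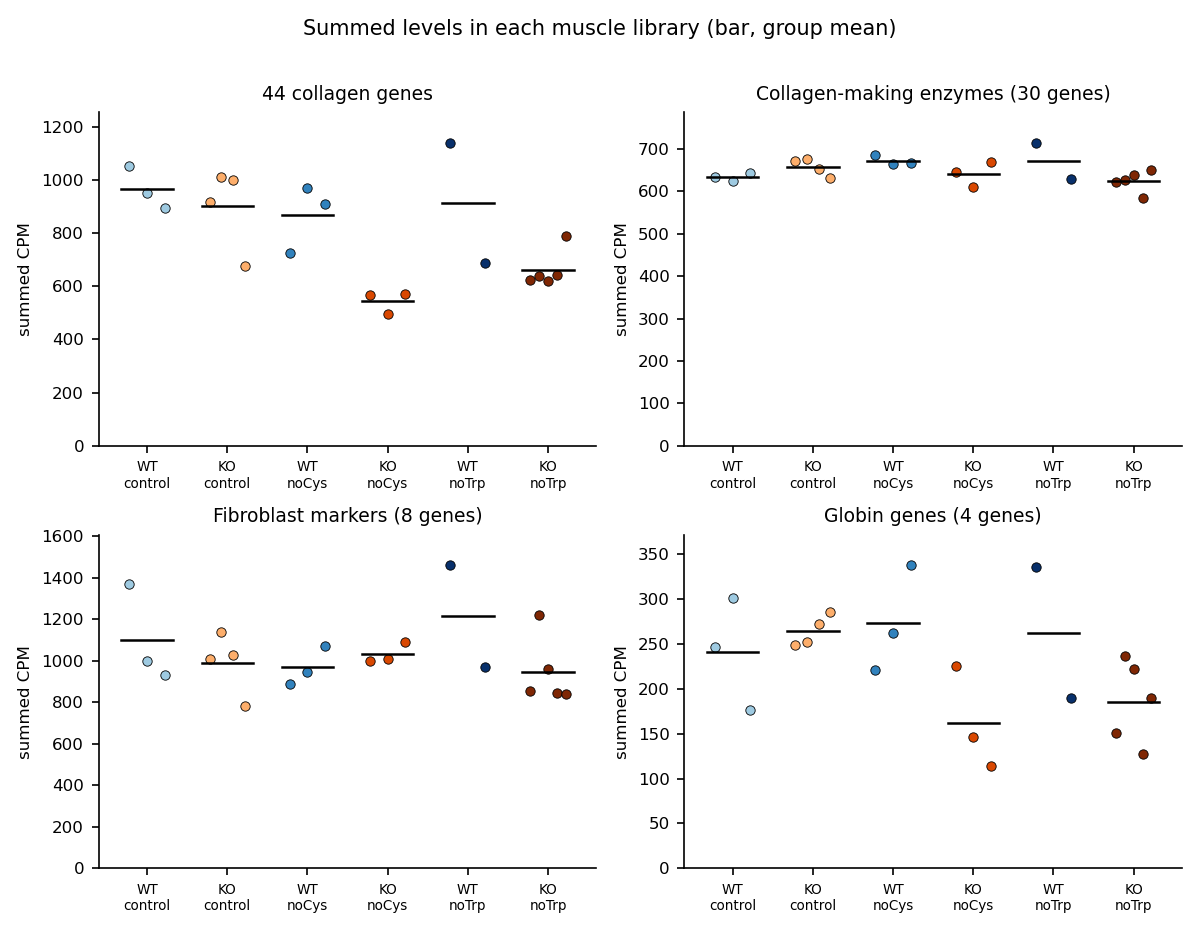
Summed CPM in each of the 20 libraries for the 44 collagen genes, 30 collagen-making enzymes, 8 fibroblast markers and 4 globin genes, with axes from 0, 1 point per library and a bar at each group mean. Collagen sums of KO noCys (495.8 to 570.3 CPM) are the lowest of the 6 groups. Fibroblast marker sums of the same libraries (1000 to 1090 CPM) lie within the range of the others but consist mostly of Gsn reads. By gene, 6 of the 8 fibroblast markers had negative differences against WT noCys and against KO control. Of the 3 globin sums of KO noCys, 2 are below all WT noCys and KO control values.

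Markers of the cells that muscle tissue can hold were read in the same libraries. The 8 fibroblast markers summed to 1000 to 1090 CPM in KO noCys, 889 to 1070 CPM in WT noCys and 782 to 1140 CPM in KO control, ranges that overlapped. By gene, 6 of the 8 had negative differences in each comparison, with medians of -0.20 and -0.35. The sum is mostly Gsn, with 18636 to 45927 reads per library beside 1343 to 4213 for Ly6a, so the sum and the median differ. Of the 8, Cd248, a surface protein of stromal cells, was lower (-1.10 ± 0.22, adjusted p = 0.0111, and -1.39 ± 0.21, adjusted p = 0.000979), while Pdgfra was at 0.17 and 0.15, Gsn at 0.18 and 0.16 and Dpt at -0.31 and -0.42. Of the 4 globin genes, 1 was called lower against WT noCys and 2 against KO control, beside 0.934% and 2.63% of all genes. They summed to 114 to 226 CPM in KO noCys, 221 to 338 CPM in WT noCys and 249 to 286 CPM in KO control, with KO noCys library 1 (226 CPM) above the lowest WT noCys library. Hbb-bt was lower against WT noCys (-1.30 ± 0.32, adjusted p = 0.0483) and Hbb-bt (-1.10 ± 0.30, adjusted p = 0.0396) and Hba-a2 (-1.09 ± 0.31, adjusted p = 0.0489) were lower against KO control. Over the 20 rounds that each left out 1 library these calls held in 4, 12 and 5 rounds, in this order. The globin sums of KO noTrp, at 128 to 237 CPM, overlapped those of KO noCys. Hbb-bt, Hba-a2 and their neighbours are near-identical copies among which reads may be split, and the part of blood content in the collagen result was not tested.

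The other lists had 0 genes called in either comparison. Tendon markers (6 genes, 2 of them, Kera and Fmod, also in the fibril-organising list) summed to 110 to 135 CPM in KO noCys, 81.6 to 188 CPM in WT noCys and 81.1 to 191 CPM in KO control. Endothelial (5 genes, 256 to 286, 256 to 276 and 252 to 334 CPM), Schwann cell and myelin (6 genes, 83.7 to 91.0, 81.1 to 157 and 87.0 to 178 CPM), adipocyte (5 genes, 922 to 2340, 604 to 2590 and 1840 to 2560 CPM) and macrophage sums (5 genes, 35.3 to 39.4, 30.8 to 46.3 and 37.2 to 52.3 CPM) overlapped in the same order of groups. Those of muscle stem cells (3 genes) were 28.3 to 31.7, 24.7 to 38.4 and 26.4 to 31.7 CPM, and those of muscle fibres 76400 to 103000, 82400 to 103000 and 81400 to 93100 CPM. Dividing-cell markers (5 genes, 4 tested) summed to 0.53 to 0.93 CPM in KO noCys, 0.61 to 1.14 CPM in WT noCys and 1.05 to 2.29 CPM in KO control. Of 6 cartilage and bone markers Sox9 was the only one tested, and the other 5 were at 0 reads in some libraries, Matn1 in 19 of 20.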

How the data were processed

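Polyadenylated RNA from muscle was sequenced by the authors, reads were aligned to GRCm38 with HISAT2 (2.1.0 in the submitters' processing notes) and counted per gene with HTSeq (0.11.0). The annotation release and strand setting of the counting were not found in the sources used. The deposited values are whole-number counts per Ensembl gene, without normalization, in 20 columns named by mouse number, of which all were used. The samples' labels do not carry these numbers. Columns were given a group, and no replicate number, by the mouse-number key in the study's supplementary workbook that is headed as muscle and captioned as adipose. All 20 columns were proportional to the same-named columns of that workbook over 1015 genes. The edges of the key's blocks were read from its layout, and the block sizes match the labelled groups. Library numbers only name a sample.

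Rows were matched to GENCODE M21 (45143 of 46078). Genes passing edgeR's filterByExpr (17340) were fitted over all 20 libraries and 6 groups with TMM scaling and a robust quasi-likelihood fit (edgeR 4.0.16, R 4.3.3), with Benjamini-Hochberg adjustment over all genes and calls at adjusted p under 0.05. The fit was also run on counts simulated from its own mean levels and spreads. That run cannot tell how well the model suits these libraries. DESeq2 1.42.0, DESeq2 size factors, other filters, a non-robust fit, only the groups compared, and leaving out each library were alternatives. Library totals were 23374720 to 73154363 reads. The study states that litters were shared between experimental and control mice where possible. Which mice were littermates was not found in the sources used, so litter did not enter the fit. The edgeR p-values set a difference of group means against a spread between mice estimated over all 6 groups. The genes named were 12 collagens, up to 15 called collagens a comparison and up to 4 called genes of each list. Other genes given with values were added after their values were seen. Members, classes and lists were chosen with earlier results of these data, and the study's own account of matrix genes in muscle, known. Ratios were compared by exact permutation tests (SciPy 1.17.1).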

Additional observations from a re-analysis of the deposited data

Results flagged for a closer look

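Dixon's criterion at the 95% level was applied to the groups of 4 or 5 libraries, KO control and KO noTrp, for 13 named collagens and their summed level, which makes 28 groups of values. Chance alone marks about 1 in 20 independent groups, and 4 were marked. These 28 are not independent, since they share the same libraries and the sum contains the named collagens. All 4 marks came from KO control library 4 or KO noTrp library 5, so their number cannot be set against that rate. Col1a1 was at 47.3 CPM in KO control library 4, far below the other 3 libraries of the group, and Col6a2 was at 25.4 CPM in the same library. This library was the most deeply sequenced, at 73154363 reads, and its summed fibroblast (782 CPM) and tendon (81.1 CPM) markers were the lowest of its group. Without it, 10 collagens were called lower in KO noCys against KO control. In KO noTrp library 5, Col1a1 was at 98.1 CPM and the summed level of the 44 collagens at 790.6 CPM, both far above the other 4 libraries. Its adipocyte markers summed to 487 CPM, the lowest of all 20 libraries, and its fibroblast markers to 841 CPM, the lowest of its group. The part of these marker levels in the collagen values was not tested.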

How the results depend on the processing

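The number of collagens called by edgeR's quasi-likelihood test in KO noCys against WT noCys was 5, and it was 2 with no filter on low counts (more genes tested) and 9 with DESeq2's Wald test. DESeq2 also moved the number from 0 to 1 for KO noCys against KO noTrp, from 0 to 3 for KO noTrp against KO control and from 0 to 2 for the interaction, and a fit of only the groups compared gave 2 for KO noTrp against KO control. The cause of these moves was not tested. A round without WT noTrp library 1 or 2 left 1 library in that group. Calls that involve WT noTrp in such a round rest on 1 WT noTrp mouse. Leaving out 1 library at a time gave 1 to 6 calls for KO noCys against WT noCys, 3 to 10 against KO control, 0 to 1 against KO noTrp, 0 to 2 for KO noTrp against KO control, 0 to 2 for WT noTrp against WT control, 0 to 3 for KO noTrp against WT noTrp, 0 to 1 for the interaction, and 0 to 0 for WT noCys against WT control and KO control against WT control. Without KO noCys library 1 or KO noTrp library 1, the differences of Col4a1 (-0.07 and -0.03) and Col4a2 (-0.09 and -0.01) between KO noCys and KO noTrp changed sign, within ranges of -0.07 to 0.14 and -0.09 to 0.18 over all such rounds, and neither was called. Over 13 named collagens in the 3 KO noCys comparisons, the other settings left 221 results on the same side of the threshold, 7 gained a call and 6 lost one, with no change of sign. Col1a1 gained its call against KO control under a stricter filter, a non-robust fit and DESeq2, and against WT noCys under DESeq2. Calls of genes of the pathway and marker lists were lost in 81 results and held in 259 when 1 library was left out, and were lost in 12 and held in 90 under the other settings. No paired analysis was possible because the columns carry mouse numbers and not the replicate numbers of the labels.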

Other observations

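Several collagen genes lie next to each other in the genome, and neighbours did not always move alike. Col3a1 and Col5a2 lie end to end on chromosome 1, 24.6 kb apart, and their log2 differences in KO noCys were -1.76 and -0.20 against WT noCys and -1.69 and -0.32 against KO control. Col6a2 and Col6a1, 85.2 kb apart on the same strand of chromosome 10, were at -1.12 and -0.75, and at -1.29 and -0.85. Col4a1 and Col4a2, whose starts overlap by 22 bases on opposite strands of chromosome 8, were at -0.22 and -0.28, and at -0.38 and -0.41. Col9a1 and Col19a1, 9.21 kb apart on chromosome 1, were at -1.44 and 0.02, and at -0.74 and -0.12, with few reads in each. These are values of 2 comparisons that share the KO noCys libraries, and no test of likeness between neighbours was run.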
